A study of Homo sapiens with 8 samples.

Results

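The loci of 7 microRNA genes that are active in epithelial cells or squamous tumours were examined for binding of p63: MIR205HG, MIR203A, MIR200C, MIR200B, MIR21, MIR34A and MIR17HG. A p63 region counted as belonging to a locus when its midpoint lay in a fixed hg19 window of 100 to 200 kb named for the gene. The windows held 16 of the 13829 regions listed in CAL27 and 9 of the 5886 listed in SCC13, at 17 different positions of 15267 in all. Of the 7 windows, 5 held a region in CAL27 and 3 in SCC13, and MIR200C and MIR17HG held none in either line. Over all chromosomes, 29.9 to 45.8% of windows of these lengths held a CAL27 region and 16.0 to 27.9% a SCC13 region. Whether each window contains its gene in hg19 was not checked, since the gene table used is of GRCh38.

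Chromatin immunoprecipitation with a p63 antibody and sequencing had been done in CAL27, a squamous carcinoma line from the tongue, and SCC13, a squamous carcinoma line from skin. Both lines are labelled wild type and untreated, and each has 2 p63 samples and 2 samples titled none. CAL27 was grown in DMEM F:12 with serum and SCC13 in serum-free keratinocyte medium with pituitary extract, EGF and calcium, so line and medium cannot be told apart. One list of regions stood for both p63 samples of a line, without heights, scores or sequencing depth. There was therefore no spread between replicates, no test of the lines was made, and absence from a list does not mean that p63 was absent from the site. The lists hold no expression values, so the labelled cell type could not be checked against markers.

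MicroRNAs are short RNAs that pair with messenger RNAs through their seed, bases 2 to 8 from the 5′ end, and lower the output of those messages. Several act in squamous epithelium beside p63, the TP63 product that keeps basal keratinocytes in their proliferative state. The miR-200 family and miR-205 repress ZEB1 and ZEB2 and so hold cells epithelial, miR-203 represses p63 when keratinocytes leave the basal layer, and miR-34a is a well-known p53 target. The products of MIR21 and of MIR17HG are best known as growth-promoting microRNAs in tumours.

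The mature products below are shown because loci whose products share a seed can act on overlapping targets. They come from RefSeq (GRCh38.p14), which had mature sequences for all 15 microRNA genes looked up. The seed is in capitals. The first 4 lines are products with a seed of their own among these loci, from MIR205HG, MIR203A, MIR21 and MIR34A.
miR-205-5p: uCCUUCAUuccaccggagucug
miR-203a-3p: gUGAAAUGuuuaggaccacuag
miR-21-5p: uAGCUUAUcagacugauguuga
miR-34a-5p: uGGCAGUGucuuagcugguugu
The next 5 are the miR-200 family, made from MIR200B and MIR200C.
miR-200b-3p: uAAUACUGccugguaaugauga
miR-200c-3p: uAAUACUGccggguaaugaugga
miR-429: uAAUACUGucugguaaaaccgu
miR-200a-3p: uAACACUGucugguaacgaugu
miR-141-3p: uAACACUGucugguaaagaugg
The last 6 are the main products of MIR17HG.
miR-17-5p: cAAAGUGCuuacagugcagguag
miR-20a-5p: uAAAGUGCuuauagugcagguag
miR-18a-5p: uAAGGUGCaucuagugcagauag
miR-19a-3p: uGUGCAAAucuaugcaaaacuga
miR-19b-3p: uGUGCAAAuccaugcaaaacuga
miR-92a-3p: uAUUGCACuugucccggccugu

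The miR-205-5p seed, CCUUCAU, occurred in 1 of the 2370 human mature microRNAs of that table, as did the miR-203a-3p seed. In contrast, the seed AAUACUG was shared by 3 mature microRNAs, of which miR-200b-3p and miR-429 come from the MIR200B locus and miR-200c-3p from MIR200C. Their relatives miR-200a-3p and miR-141-3p also come from MIR200B and MIR200C and share AACACUG. That seed differs from AAUACUG by U4C, counted from the 5′ end of the microRNA with the base of miR-200b-3p first. Over 22 positions miR-200b-3p and miR-200c-3p were identical at 20. The miR-17-5p seed, AAAGUGC, was held by 8 human microRNAs, among them miR-20a-5p of the same cluster. Within that table, which may not hold every human microRNA, seeds were also shared beyond these loci. They were those of miR-21-5p, with miR-590-5p, and of miR-34a-5p, with miR-449a and miR-449b-5p, among others.

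The MIR205HG locus held most of the p63 regions. MIR205HG is the long noncoding RNA gene from which miR-205 is processed, and in the RefSeq gene order of GRCh38 it lies between PLXNA2 and CAMK1G, with LAMB3, a laminin-332 gene, next but one above. Its window, chromosome 1 at 209500001 to 209700000 in hg19, contained 10 regions in CAL27 and 7 in SCC13. All 7 SCC13 regions were among the 10 of CAL27, against 75.6% of the whole SCC13 list. Their start and end positions were identical, as they were for all 4448 regions that the lists share, so this is no trait of the locus. How these positions came to be identical is not stated, so the lists cannot be taken as called separately. The window held 5 regions per 100 kb in CAL27 and 3.5 in SCC13, covering 5.33% and 3.99% of its length.

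The other 6 windows held 6 regions in CAL27 and 2 in SCC13 together. MIR200B had 2 regions in CAL27 and none in SCC13. MIR34A had 2 and 1, MIR203A had 1 and 1, and MIR21 had 1 in CAL27 and none in SCC13. At windows of the same length over all chromosomes, the mean number of CAL27 regions ranged from 0.456 at 100 kb to 0.912 at 200 kb, and that of SCC13 regions from 0.194 to 0.388.

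**Figure D1:**
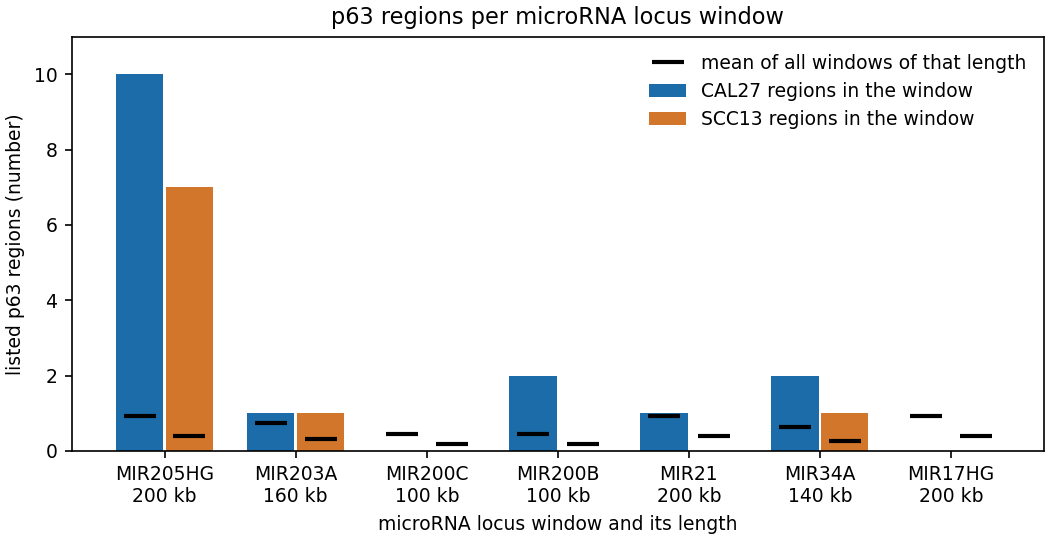
Number of listed p63 regions (vertical axis) in each of the 7 windows, with the window length under its name; bars are CAL27 and SCC13, 1 list each, and black marks give the mean of all windows of that length in the same list. MIR205HG stands at 10 and 7, every other window at 2 or fewer.

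So dense a stretch was uncommon in either list. Chromosomes were divided from their start into adjoining windows of 200 kb up to the last listed region, unsequenced stretches included. Of these 15159 windows, 45.8% held a CAL27 region and 27.9% a SCC13 region. At least 10 CAL27 regions were found in 8 windows (0.0528%), and at least 7 SCC13 regions in 3 windows (0.0198%). Shifting the grid by 50, 100 or 150 kb gave 5, 9 and 5 windows for CAL27 and 1, 3 and 3 for SCC13. The grid shifted by 100 kb has the MIR205HG window as one of its own, counted among those 9 and 3. In SCC13, windows overlapping this locus are also among the 3 of the unshifted grid and the 3 of the 150 kb shift. The window was named for its gene with earlier results in view, so these shares describe its place among windows and are not tests.

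**Figure D2:**
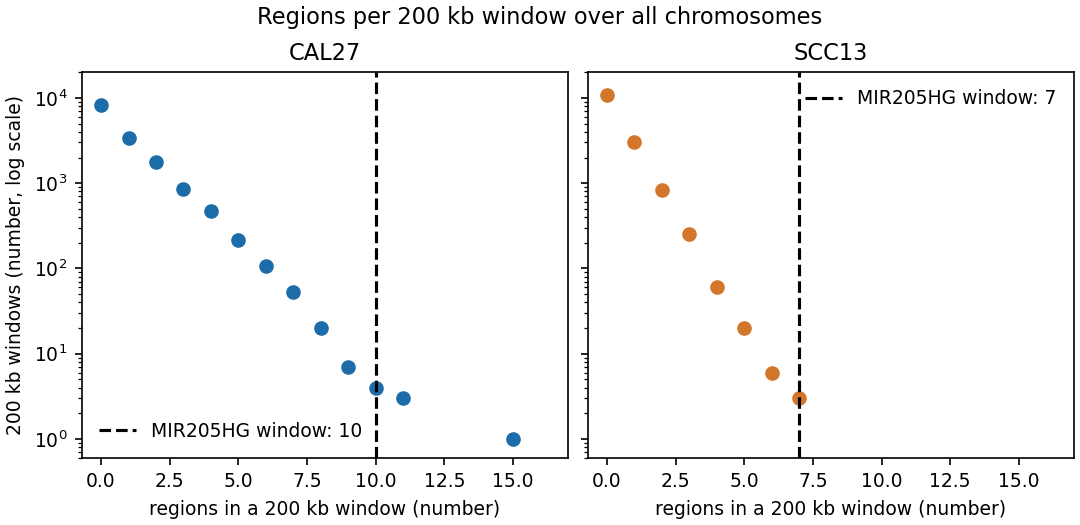
Number of 200 kb windows (vertical axis, log scale) with each number of p63 regions (horizontal axis) in CAL27 and SCC13; the dashed line marks the MIR205HG window. The line crosses the sparse right end of both distributions, at 10 regions in CAL27 and at 7 in SCC13, where 7 is also the highest number in any window.

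Most regions at MIR205HG lay in a single stretch of the window, called the string here. From 209537884 to 209607395, 9 CAL27 regions lay within 69.5 kb, and the tenth, at 209658208 to 209659239, was set apart by 51.8 kb between midpoints. In SCC13 the string ran from 209537884 to 209604885 and held all 7 regions. Neighbouring midpoints inside it were 2.36 to 15.0 kb apart in CAL27 and 4.80 to 15.0 kb in SCC13. The nearest neighbour of a region in this window was 5.65 kb away in CAL27 and 5.73 kb in SCC13 at the median. Over all regions of each list it was 36.5 and 102 kb. Many regions in a window bring neighbours close, so this contrast restates their density. Whether the spacing of the regions differs from an even or random scatter was not tested.

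How many groups this string made depended on the joining distance. With midpoints joined within 12.5 kb, the 10 CAL27 regions fell into 5 groups of at most 3, a size that 309 groups of that list reached. In SCC13 the 7 regions also fell into 5 groups, of at most 2, a size that 345 groups of its list reached. At 13 kb the largest group held 5 regions in CAL27 and 3 in SCC13, with 15 and 28 groups at least as large. The 3 widest gaps of the CAL27 string, of 12.5, 13.2 and 15.0 kb, were each longer than the 12.5 kb limit (the shortest was 12.5495 kb). At 15.5 kb, a distance chosen after those gaps were seen, the string joined into 1 group of 9 in CAL27, and 2 groups in that list were that large, which was the most any group held. In SCC13 it joined into 1 group of 7, the largest of the 5445 groups. At 25 kb it was still 9 and 7, with 5 CAL27 groups and 1 SCC13 group at least as large.

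**Figure D3:**
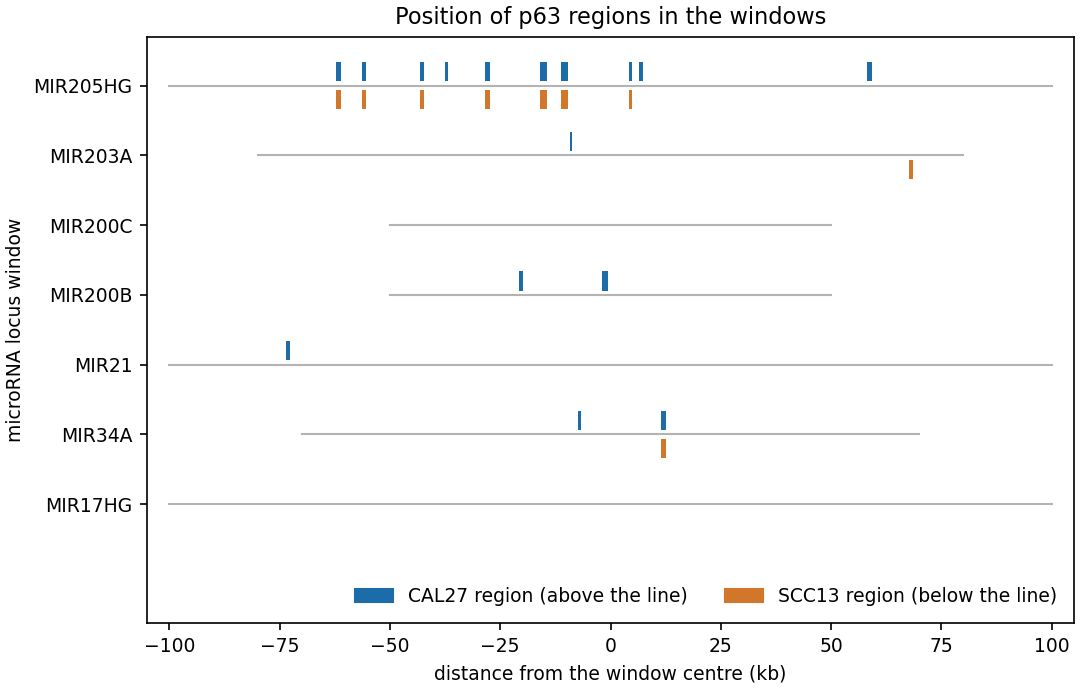
Position of each p63 region as its distance from the window centre (kb, horizontal axis) for the 7 windows (rows); grey lines are the windows, CAL27 regions are drawn above and SCC13 regions below, at their true width. All 7 SCC13 marks at MIR205HG sit under a CAL27 mark, and MIR200C and MIR17HG are empty.

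Both widest regions of the 7 windows lay next to each other in the MIR205HG string. They were the 1566 bp region at 209583959 to 209585524 and the 1581 bp region at 209588753 to 209590333, with midpoints 4.80 kb apart and listed in both lines. They were wider than 95.2% and 95.4% of CAL27 regions and 92.9% and 93.4% of SCC13 regions. Over all positions, 5.47% were 1500 bp or wider, and among positions listed in both lines, as these 2 are, it was 10.9%. These 2 were the only ones of the 17 in the windows. The other 4 shared regions towards lower coordinates were narrower, with 949 bp (209537884 to 209538832), 966 bp (209543607 to 209544572), 1035 bp (209556744 to 209557778) and 1165 bp (209571610 to 209572774). The last shared region, 711 bp at 209604175 to 209604885, was the narrowest of the 7 and narrower than the median of either list.

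CAL27 had 3 further regions at this locus. One of 660 bp, at 209562577 to 209563236, sat within the string between shared regions. Another of 1002 bp, at 209606394 to 209607395, ended the string, with its midpoint 2.36 kb above that of the last shared region. The isolated 1032 bp region at 209658208 to 209659239 was the third. Their widths overlapped those of the shared regions, which ran from 711 to 1581 bp. A width is the extent of a called region and not its height, so it does not rank binding.

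**Figure D4:**
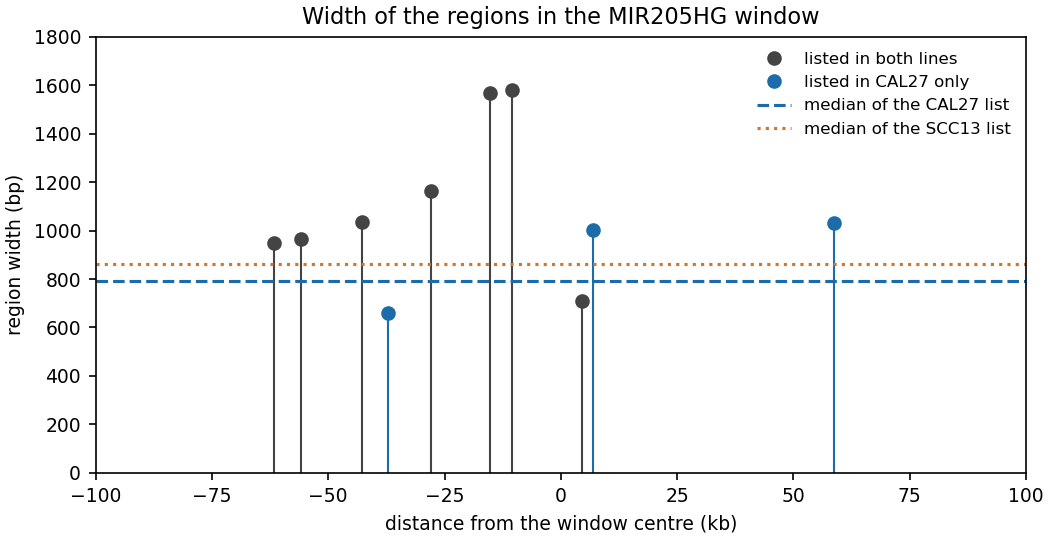
Width of each region of the MIR205HG window (bp, vertical axis) at its distance from the window centre (kb, horizontal axis); grey points are listed in both lines, blue points in CAL27 only, and horizontal lines are the medians of the CAL27 list (791 bp) and the SCC13 list (862 bp). The 2 tallest points, 1566 and 1581 bp, stand side by side in the string, and 1 of the 7 shared regions is below both medians.

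The miR-200 family loci held 2 regions in CAL27, both at MIR200B, and none in SCC13. At MIR200B, which with MIR200A and MIR429 lies in the host gene MIR200BHG, with C1orf159 and TTLL10 as the nearest named protein-coding genes, the window was chromosome 1 at 1050001 to 1150000. It held regions of 954 bp at 1079236 to 1080189 and of 1292 bp at 1098160 to 1099451, both in CAL27 only. The second was wider than 88.4% of CAL27 regions and its midpoint was 1.20 kb from the centre of the window. Of all 100 kb windows, 29.9% held a CAL27 region and 10.3% held 2 or more. A region of 599 bp at 1153092 to 1153690, listed in both lines, lay just beyond the edge with its midpoint 3.39 kb outside, so SCC13's count of 0 depends on where the window ends.

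At MIR200C, which with MIR141 lies in MIR200CHG between PTPN6 and PHB2, the window at chromosome 12 from 7020001 to 7120000 held no region in either line. A SCC13 region was found in 16.0% of 100 kb windows. The nearest listed region was the same in both lines, 1809 bp wide at 7146371 to 7148179, with its midpoint 27.3 kb above the edge. On the other side the nearest midpoints were 157 kb away in CAL27 and 175 kb in SCC13. The 3 microRNAs with the seed AAUACUG came from a locus with 2 regions in CAL27 and from a locus with none.

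MIR34A, whose product represses cell-cycle genes, was the only locus besides MIR205HG with a region in both lists. It lies in the host gene MIR34AHG between GPR157 and H6PD, and its window was chromosome 1 at 9160001 to 9300000. The shared region was 1327 bp wide at 9241358 to 9242684, wider than 89.6% of CAL27 and 86.3% of SCC13 regions. CAL27 also listed a narrower one, 711 bp at 9222686 to 9223396, with its midpoint 19.0 kb below. Windows of this length held a region in 37.2% of cases in CAL27 and in 20.9% in SCC13, and 2 or more in 15.5% in CAL27, so neither count stood far from that of other windows.

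At MIR203A the lines listed different regions. The gene overlaps MIR203B on the opposite strand of the same hairpin and lies next to ASPG and KIF26A in the GRCh38 order. Its window was chromosome 14 from 104500001 to 104660000. CAL27 had a region of 577 bp at 104570748 to 104571324, wider than 19.5% of its list and the narrowest in any of the windows. SCC13 had one of 854 bp at 104647728 to 104648581, close to its median width and with its midpoint 11.8 kb inside the upper edge. It was the only SCC13-only region of the 17 positions. Of windows of this length, 40.3% held a CAL27 region and 23.4% a SCC13 region.

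The loci of the growth-promoting microRNAs had 1 region in CAL27 and none in SCC13 together. MIR21 lies within VMP1, between PTRH2 and TUBD1, and its window on chromosome 17 from 57820001 to 58020000 held a single CAL27 region, 905 bp at 57846483 to 57847387, with its midpoint 73.1 kb from the window centre. SCC13 listed none in that window, and its nearest had a midpoint 140 kb above the edge. MIR17HG, the host of 6 microRNA genes, lies beside GPC5, and its window on chromosome 13 from 91900001 to 92100000 was empty in both lines. The nearest regions had their midpoints 926 kb outside that window in CAL27 and 1066 kb outside in SCC13. Windows of 200 kb without a region made up 54.2% of all in CAL27 and 72.1% in SCC13, so empty windows of this length were common.

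Of the 17 positions in these windows 8 were in both lists, or 47.1%, against 29.1% of all positions. For the SCC13 list it was 8 of 9 regions, or 88.9% (95% exact Clopper-Pearson interval 51.8 to 99.7), against 75.6% of the whole list. For CAL27 it was 8 of 16, or 50.0% (24.7 to 75.3), against 32.2%. The intervals cover counting error only and contain the value of the whole list. Neighbouring regions of a locus are not independent, and 7 of the 8 shared regions came from MIR205HG. Without that locus, a division added after its count was seen, 1 of 6 CAL27 regions (16.7%) and 1 of 2 SCC13 regions were shared. These shares were not tested.

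Member regions had a median width of 984 bp in CAL27 and 1035 bp in SCC13, against 791 and 862 bp in the whole lists. Of the 16 CAL27 regions 12 exceeded the median of their list, and of the 9 SCC13 regions 7 did. Without MIR205HG it was 4 of 6 in CAL27 and 1 of 2 in SCC13. The lines are not separate measurements of width, since 8 of the 9 SCC13 regions had identical positions in the CAL27 list. Shared regions of the windows had a median of 1100 bp and CAL27-only regions of 929.5 bp, with overlapping ranges of 711 to 1581 and 577 to 1292 bp. Over all positions these medians were 934 and 723 bp. Whether start and end positions set jointly for both lines enter this difference was not tested.

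**Figure D5:**
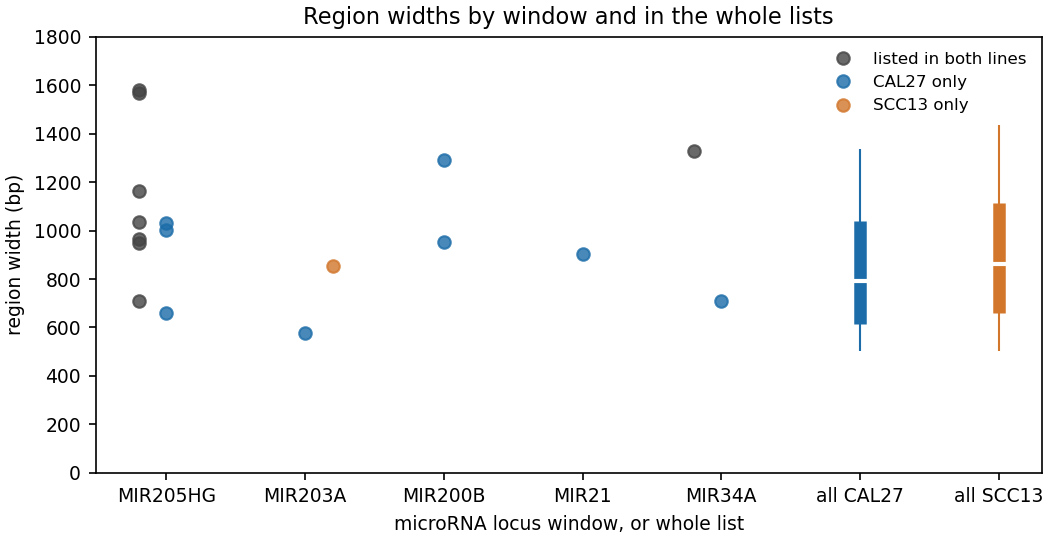
Width (bp, vertical axis) of each p63 region in the 5 windows that held any, grey for regions in both lists, blue for CAL27 only and orange for SCC13 only; at the right, thick bars span the middle 50% of each whole list, thin lines its 10th to 90th percentile and white marks its median. Regions above 1500 bp occur at MIR205HG alone among these windows, and the 577 bp region of MIR203A is the narrowest.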

How the data were processed

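The authors deposited region lists, 1 for each line, that give a chromosome and the start and end positions in bp (unit: other) and nothing more. Per the submitters' processing notes, Bowtie2, SAMtools 1.8, MACS2 and hg19 were used, without roles or order. How peaks were thresholded, how replicates were joined and whether regions were set jointly for both lines is not stated there. Each list is named in the labels of both p63 samples of its line. Start positions, counted from 0 in the lists, are printed counted from 1.

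Windows, the 7 members and all comparisons were chosen with earlier results of these data known. All 7 loci and all regions in their windows are named. Regions were matched between lists by an overlap of at least 1 bp. No genome of hg19 was used, so gene positions, distances to genes and sequences of regions were not analysed here; gene order and microRNA sequences are from RefSeq (GRCh38.p14), without its coordinates. Depth is unknown, and intervals cover counting error only. Tools were matplotlib 3.10.9, pandas 2.3.3, scipy 1.17.1 and numpy 2.4.6 under Python 3.11.15, and functions were tested on simulated data.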

Additional observations from a re-analysis of the deposited data

How the results depend on the processing

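No paired analysis was possible because each line has 1 list for both replicates. Leaving out a replicate was likewise impossible, and without scores no stricter threshold was run. Counting regions by any overlap or only when wholly inside left every count of the windows unchanged. For the other settings, counts that moved by more than 1.5 times are named below. The 3 other matching rules also gave 8 shared regions, which identical positions in both lists fix beforehand. Doubling the windows gave 14 SCC13 regions in place of 9 and 5 windows with one in place of 3; MIR200B then had 4 in CAL27 and 2 in SCC13, MIR200C 1 in each, MIR21 2 in CAL27 and MIR34A 2 in SCC13. In windows shortened to 0.5 of their length, MIR21 in CAL27 and MIR203A in SCC13 had 0. With neighbours within 12.5 kb counted once, 5 groups in place of 8 regions were shared. MIR205HG then had 5 in CAL27 and 5 in SCC13, in place of 10 and 7. Among regions at least as wide as their list's median, MIR203A had none in either line and MIR34A 1 in CAL27. Without MIR205HG, a choice made after its count was seen, the windows held 6 CAL27 regions, 2 SCC13 regions and 1 shared region.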
